A study of Mus musculus with 24 samples.

Results

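The genes described here are 10 markers by which muscle satellite cells are recognised, namely Pax7, Pax3, Cd34, Vcam1, Sdc3, Sdc4, Cxcr4, Chrdl2, Itm2a and Megf10. They were taken by gene name, with earlier results of these data known. Each of the 10 names matched 1 row among the 28109 genes of the count table. The study asked what the Tead transcription factors do while myoblasts differentiate, in the established mouse myoblast line C2C12 and in primary myoblasts (PMs). The labels give C3H as the strain of C2C12 cells and C57BL/6 as that of the PMs, which came from wild type mice 3 to 4 weeks old. C2C12 cells were kept in DMEM on uncoated dishes and PMs in IMDM on matrigel, so that cell type, strain, medium and coating cannot be told apart in any comparison of PMs with C2C12 cells. Each cell type received siControl (an siRNA that the labels name as directed against luciferase) or siTead1/4 (siRNAs against both Tead1 and Tead4). Sampling was at day 0, before the change to medium with 2% horse serum, and again 3 and 6 days into differentiation. Each of the 12 groups had 2 biological replicates, which gave 24 RNA-seq libraries. The cells were cultures of whole myoblast populations and not sorted satellite cells, and fewer cells with a transcript cannot be told apart from less of it per cell.

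Satellite cells are the resident stem cells of skeletal muscle and lie beneath the basal lamina of the fibre. Pax7 and Pax3 are the paired-box transcription factors that specify them. Vcam1, Cxcr4, Cd34, syndecan 3 (Sdc3) and syndecan 4 (Sdc4) are surface proteins used to isolate or stain them, Megf10 is a transmembrane EGF-repeat protein linked to their proliferation, Chrdl2 is a secreted chordin-like antagonist of BMPs, and Itm2a is a membrane protein of myogenic cells. On activation satellite cells become proliferating myoblasts, and as these commit to differentiation under Myod1 and Myog, Pax7 is normally lost and the cells leave the cell cycle and fuse.

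Total counts per library were 25453830 to 52784510 with a median of 39204772. Tead4 was lower in both siTead1/4 libraries than in both siControl libraries in all 6 comparisons, with a mean of 4.33 against 20.0 CPM (read counts scaled to a common library size) in C2C12 cells and of 12.1 against 61.9 CPM in PMs at day 0. The fall of Tead4 was called in edgeR on all days except day 6 of C2C12 cells (adjusted p = 0.318), and that of Tead1 at days 0 and 3 of PMs (adjusted p = 0.0211 and 0.0107) but not at day 6 of PMs (0.143) or on any day of C2C12 cells (0.168, 0.501 and 0.945). The 8 myogenic cell markers summed to 1159 to 9925 CPM in C2C12 libraries and to 5607 to 13179 CPM in PM libraries. The 8 endothelial markers summed to 0.366 to 4.10 CPM in C2C12 libraries and to 7.15 to 28.7 CPM in PM libraries. The 8 blood cell markers stayed between 1.14 and 2.62 CPM in C2C12 libraries and between 4.01 and 37.0 CPM in PM libraries. The 8 fibroblast markers had 556 to 3878 CPM in PM libraries and 902 to 3692 CPM in C2C12 libraries, with Tcf21 at 0 in each of the groups. The 8 Schwann cell markers summed to 10.4 to 399 CPM and the 8 pericyte and smooth muscle markers to 205 to 681 CPM over the 24 libraries. The myogenic list includes Pax7, and sums over different genes do not give the share of each cell type. Myogenic markers had higher sums than the lists of other cell types in every PM library and in 11 of 12 C2C12 libraries. In the other, of siTead1/4 at day 0, the myogenic sum was 1159 CPM and the fibroblast sums of that group were 1467 and 1816 CPM.

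In mm9, the build of the deposited table, Pax7 (ENSMUSG00000028736) lies at chr4:139292977-139389445 and Sdc3 at chr4:130348452-130382234. Pax3, Cd34 and Cxcr4 are on chromosome 1, at chr1:78097842-78193709, chr1:196765015-196787486 and chr1:130484776-130488870. Sdc4 is at chr2:164249747-164269387, Vcam1 at chr3:115812938-115832606, Chrdl2 at chr7:107154914-107183238 and Itm2a at chrX:104592438-104598715. All 10 members are annotated as protein-coding. The libraries did not keep the strand, so reads of Cd34 and Sdc3 can include those of Gm16897 and Gm12970, which overlap them on the opposite strand.

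The promoters of 3 members are printed as examples of different courses, namely Pax7, which fell in PMs, Cxcr4, which moved in opposite directions, and Itm2a, which rose in both cell types from very different levels. Each run is the 250 bases before the RefSeq start, from the GRCm38.p6 table, and each was found 1 time near its gene in mm9, on the minus strand, at chr4:139388884-139389133 for Pax7, chr1:130488877-130489126 for Cxcr4 and chrX:104598700-104598949 for Itm2a. The RefSeq starts lie 562, 6 and 16 bases from the gene starts of the count table. Capitals mark matches to the E-box CANNTG, the letters that Myod1 and Myog bind.
Pax7: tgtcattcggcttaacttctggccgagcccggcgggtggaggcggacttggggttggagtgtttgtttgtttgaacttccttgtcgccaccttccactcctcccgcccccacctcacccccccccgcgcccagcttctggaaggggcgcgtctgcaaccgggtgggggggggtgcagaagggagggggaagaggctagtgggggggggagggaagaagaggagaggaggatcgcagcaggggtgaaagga
Cxcr4: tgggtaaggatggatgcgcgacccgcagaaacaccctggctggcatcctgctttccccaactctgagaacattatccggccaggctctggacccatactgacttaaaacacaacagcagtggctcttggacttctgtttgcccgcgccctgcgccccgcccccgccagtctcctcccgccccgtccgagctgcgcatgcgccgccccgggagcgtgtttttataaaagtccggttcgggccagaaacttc
Itm2a: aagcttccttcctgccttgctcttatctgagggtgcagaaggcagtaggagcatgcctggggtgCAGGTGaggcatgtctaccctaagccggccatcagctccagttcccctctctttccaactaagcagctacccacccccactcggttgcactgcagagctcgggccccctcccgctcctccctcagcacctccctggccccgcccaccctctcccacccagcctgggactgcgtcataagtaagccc
The only match among the 3 was the E-box of Itm2a, whose first base is at -186 from the start. Of the 32851 promoters in the table, 66.2% held CANNTG in the same 250 bases. The core motif of Tead factors, GGAATG, was searched on both strands in the 6 members with an entry (Pax7, Cd34, Sdc3, Sdc4, Cxcr4 and Itm2a). It was in none of the 6 and in 12.6% of all promoters. TGGGAA, the motif of the Notch effector Rbpj, was in none of the 6 and in 21.6% of all. CAGCTG, 1 form of CANNTG, was in none of the 6 and in 13.0% of all. These are counts of letters in a short window and say nothing of binding elsewhere.

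In siControl cells the markers did not move as a set. A gene was called here when its adjusted p in edgeR was under 0.05 and its log2 fold change was beyond 1 in either direction. In PMs 7 of 10 members were called from day 0 to day 3, where 32.3% of all tested genes were called, and 6 of 10 from day 0 to day 6, where 35.5% were. Cd34 and Itm2a rose at both days, beside 17.5% and 20.2% of all genes. Pax7, Vcam1, Sdc3 and Chrdl2 fell at both days and Cxcr4 at day 3, beside 14.9% and 15.3% of all genes. In C2C12 cells 4 of the 8 members with enough counts for the test were called at day 3 (28.7% of all tested genes) and 4 at day 6 (31.1%). There Cxcr4, Itm2a and Megf10 rose at both days, beside 16% and 17.1% of all genes, and Sdc3 fell, beside 12.7% and 14%. Pax7 passed at neither day. Pax3 and Chrdl2 had too few counts in C2C12 cells to be tested. From day 3 to day 6 no member was called in either cell type (0% of genes called in C2C12 cells, 2.8% in PMs). At an unadjusted p under 0.05 there were 2 in C2C12 cells and 4 in PMs, and DESeq2 called 0 and 1.

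**Figure D1:**
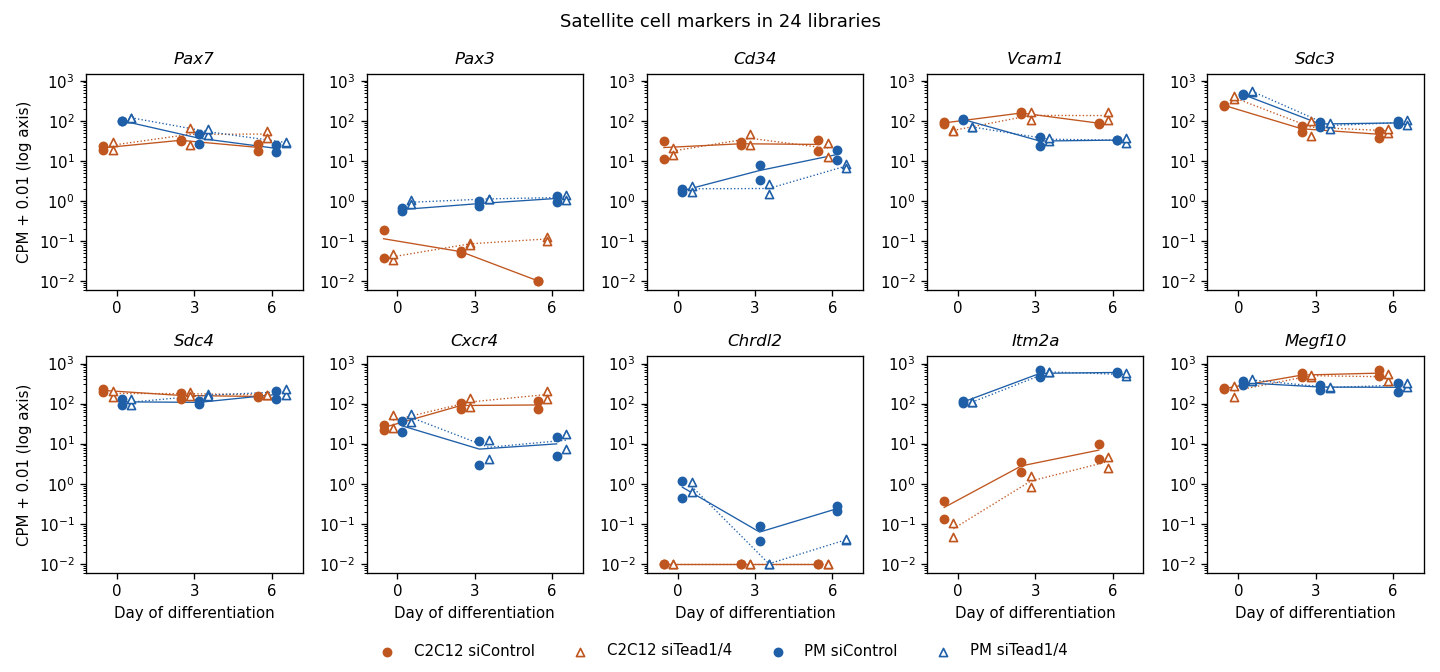
CPM of each member in the 24 libraries (log axis, 0.01 added so that libraries at 0 can be drawn) by day, with lines through the group means. C2C12 libraries are orange and PM libraries blue, siControl is filled and siTead1/4 open. Itm2a and Chrdl2 are lower in every C2C12 library than in PMs of the same day and siRNA, except Chrdl2 in siTead1/4 cells at day 3, which is at 0 in both.

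Scaled by transcript length, the order of the members differed between the cell types. In PM siControl cells at day 0 Sdc3 was highest at 88.6 CPM per kb, followed by Itm2a at 62.2, Sdc4 at 43.4, Megf10 at 43.1, Vcam1 at 22.0, Pax7 at 17.1, Cxcr4 at 15.4, Cd34 at 0.678, Chrdl2 at 0.465 and Pax3 at 0.0964 CPM per kb. The libraries of Sdc4 and Megf10, of Pax7 and Cxcr4, and of Cd34 and Chrdl2 overlapped, so the order within these pairs was not resolved. In C2C12 siControl cells at day 0 Sdc4 was highest at 83.6 CPM per kb, then Sdc3 at 47.2, Megf10 at 30.9, Vcam1 at 17.9, Cxcr4 at 13.9, Cd34 at 8.14 and Pax7 at 3.58 CPM per kb, with no overlap between neighbours. Itm2a, second in PMs, was eighth at 0.141 CPM per kb. By day 6 Itm2a stood first in PMs at 343 CPM per kb, above Sdc4 at 66.2, while in C2C12 cells Megf10 stood first at 74.6 CPM per kb. Pax7 had dropped to eighth in PMs at day 6, at 3.47 CPM per kb, where its libraries overlapped those of Cxcr4 and of Cd34.

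Pax7, the factor that defines the satellite cell lineage, fell during differentiation of PMs but not of C2C12 cells. In PM siControl libraries it was at 101 and 99.2 CPM at day 0, at 25.6 and 47.3 CPM at day 3, and at 16.6 and 24.1 CPM at day 6. The day 0 libraries stood above all later ones. The log2 fold change was -1.51 ± 0.27 (SE, n = 2 per group, edgeR adjusted p = 0.000714) at day 3 and -2.36 ± 0.28 (adjusted p = 3.68e-05) at day 6. In C2C12 siControl libraries it was at 23.3 and 18.6 CPM at day 0, at 31.7 and 33.1 CPM at day 3, and at 17.4 and 25.8 CPM at day 6. C2C12 cells thus held Pax7 near the level that PMs reached at the end, and their day 6 libraries overlapped those of day 0 (95% interval of the log2 fold change -0.97 to 0.96). The change to day 6 differed between PMs and C2C12 cells by -2.34 ± 0.56 on the log2 scale (adjusted p = 0.00825), and that to day 3 by -2.08 ± 0.55 (adjusted p = 0.0178). The difference at day 3 was not called without replicate 2 of C2C12 siControl at day 0 (adjusted p = 0.0754) or at day 3 (0.0509), nor without replicate 1 of PM siControl at day 3 (0.0973).

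At day 0 Pax7 was higher in PMs than in C2C12 cells by 2.25 ± 0.41 on the log2 scale (adjusted p = 0.000277), and at days 3 and 6 the libraries of both cell types overlapped. In PMs against C2C12 cells at day 0, 5 of the 10 members were called beside 26.8% of all genes, with 4 higher (16.3% of all genes) and 1 lower (10.5%). Under siTead1/4 the PM libraries held 120 and 117 CPM at day 0, 43.2 and 62.9 CPM at day 3, and 27.6 and 29.9 CPM at day 6. They stood above both siControl libraries at days 0 and 6 and overlapped them at day 3, with log2 differences of 0.23, 0.53 and 0.50 and adjusted p of 0.650, 0.274 and 0.552. In C2C12 siTead1/4 libraries Pax7 was at 30.0 and 19.0 CPM at day 0, at 67.3 and 24.2 CPM at day 3, and at 56.2 and 36.6 CPM at day 6. The day 6 libraries stood above siControl by 1.11 ± 0.44 on the log2 scale, which did not pass (adjusted p = 0.623). In the same satellite cell lineage Myf5, the myogenic factor that follows Pax7, fell in PMs by -2.28 at day 3 and -2.97 at day 6 on the log2 scale (adjusted p = 2.45e-05 and 4.41e-06), from a mean of 107 CPM at day 0 to 14.3 CPM at day 6.

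Pax3, which acts beside Pax7 in the embryo and in satellite cells of some muscles, was close to the limit of detection. PM siControl libraries held 31 and 19 reads at day 0, 34 and 29 reads at day 3, and 41 and 29 reads at day 6, which is 0.537 to 1.33 CPM. C2C12 siControl libraries held 1 and 10 reads at day 0, 2 and 2 reads at day 3, and 0 and 0 reads at day 6. PMs stood above C2C12 cells on each day. At day 0 the log2 difference was 2.36 ± 0.47 (adjusted p = 0.000795), which became 4.24 without replicate 2 of C2C12 siControl at day 0, the library with 10 reads. Against a floor of 3 reads per library, Pax3 in PMs was at least 12.8-fold higher than in C2C12 cells on day 3 (adjusted p = 1.46e-05) and at least 14.4-fold on day 6 (adjusted p = 1.31e-06). Without replicate 1 of PM siControl of the same day these bounds were 11.1-fold and 12.0-fold. In PMs the rise from day 0 to day 6 was 0.85 ± 0.31 on the log2 scale (adjusted p = 0.033), below the fold threshold, and was called without replicate 2 of PM siControl at day 6 (1.07, adjusted p = 0.0302). The test of the change to day 6 against that of C2C12 cells passed (adjusted p = 0.00223), with a size that depends on the 0 reads there, and did not pass without replicate 2 of C2C12 siControl at day 0 (adjusted p = 0.268).

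Vcam1, the adhesion receptor that binds integrin α4β1, fell in PMs and not in C2C12 cells. PM siControl libraries held 113 and 104 CPM at day 0, 23.9 and 38.1 CPM at day 3, and 32.4 and 33.2 CPM at day 6. Both day 0 libraries were above the others, with log2 fold changes of -1.86 ± 0.21 at day 3 and -1.79 ± 0.21 at day 6 (adjusted p = 2.85e-05 and 3.36e-05). C2C12 siControl libraries held 94.5 and 81.5 CPM at day 0, 162 and 150 CPM at day 3, and 84.5 and 89.0 CPM at day 6. The level at day 3 was the higher one in C2C12 cells, by 0.78 ± 0.27 over day 0 on the log2 scale (adjusted p = 0.044), short of the fold threshold, and day 6 overlapped day 0. The changes differed between the cell types by -2.63 ± 0.36 at day 3 and -1.70 ± 0.36 at day 6 (adjusted p = 9.43e-05 and 0.00343). At day 0 the log2 difference of PMs from C2C12 cells was 0.30 with a 95% interval of -0.24 to 0.83, whereas at day 3 it was -2.33 ± 0.27 and at day 6 -1.40 ± 0.26 (adjusted p = 2.98e-06 and 0.00043). In all, PMs against C2C12 cells had 5 members called at day 3 and 6 at day 6, beside 29.8% and 24.9% of all genes. At day 3, 2 were higher in PMs (17.2% of all genes) and 3 lower (12.6%), and at day 6, 3 were higher (15.7%) and 3 lower (9.22%). Itga4, the α4 subunit of the integrin that Vcam1 binds, rose in C2C12 siControl cells from a mean of 1.64 CPM at day 0 to 16.0 CPM at day 3 (log2 fold change 3.22, adjusted p = 0.00011), and was at 51.6 and 28.3 CPM in PMs.

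Cxcr4, the receptor for the chemokine Cxcl12, moved in opposite directions. C2C12 siControl libraries held 28.6 and 21.8 CPM at day 0, 74.3 and 104 CPM at day 3, and 113 and 71.5 CPM at day 6. Each later library was above both at day 0, with log2 fold changes of 1.79 ± 0.43 and 1.84 ± 0.43 (adjusted p = 0.00855 and 0.00688). PM siControl libraries held 19.7 and 36.0 CPM at day 0, 2.97 and 11.6 CPM at day 3, and 4.98 and 14.7 CPM at day 6. All later PM libraries were below day 0, by -1.98 ± 0.73 on the log2 scale at day 3 (adjusted p = 0.0385) and by -1.56 ± 0.73 at day 6, which did not pass (adjusted p = 0.0848). The difference of the changes, PMs minus C2C12 cells, was -3.75 ± 0.94 at day 3 and -3.37 ± 0.93 at day 6 (adjusted p = 0.0123 and 0.0209). Cell types did not differ detectably at day 0 (95% interval -1.21 to 1.5), and PMs were lower by -3.61 ± 0.71 at day 3 and -3.23 ± 0.70 at day 6 (adjusted p = 0.000588 and 0.00163).

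Single libraries decided several calls for Cxcr4 in fits that did not include the replicate number. In PMs Cxcr4 was higher in replicate 2 in all 6 groups. With the replicate number as a block its fall in PMs at day 6 was called (-1.69, adjusted p = 0.000129). The fall in PMs at day 3 was lost without replicate 2 of PM siControl at day 0 (adjusted p = 0.181) or replicate 1 at day 3 (log2 fold change -1.31, adjusted p = 0.205), and was -3.27 without replicate 2 at day 3. The rise in C2C12 cells was lost without replicate 2 of siControl at day 0 (adjusted p = 0.0676 at day 3 and 0.0569 at day 6), replicate 2 at day 3 (0.0579) or replicate 1 at day 6 (0.0527). In PMs at day 6 Cxcr4 was called without replicate 2 of that group (-2.55, adjusted p = 0.0403), with no filter on low counts (-1.58, adjusted p = 0.00106) and in a fit of only the libraries compared (-1.56, adjusted p = 0.0374). The difference of the changes at day 3 was lost without replicate 2 of C2C12 siControl at day 0 (0.059), replicate 2 of PM siControl at day 0 (0.0586) or replicate 1 at day 3 (0.0647). That at day 6 was lost without either C2C12 library of day 0 (0.0542 and 0.0873), C2C12 replicate 1 of day 6 (0.0697), PM replicate 2 of day 0 (0.091) or PM replicate 1 of day 6 (0.104). In PMs the summed blood cell markers were at 31.4 and 37.0 CPM at day 0 and between 4.01 and 7.15 CPM at days 3 and 6, with Ptprc and Cd52 at 0 in both day 0 libraries, and their part in the fall of Cxcr4 was not tested. The ligand Cxcl12 fell in PMs from a mean of 172 CPM at day 0 to 15.7 CPM at day 3 (log2 fold change -3.51, adjusted p = 1.3e-05), and Cxcr7, the second receptor of Cxcl12, fell from 65.3 to 5.92 CPM (-3.52, adjusted p = 2.9e-05). In C2C12 cells neither was called, with means of 32.8 and 73.3 CPM for Cxcl12 and of 95.3 and 63.9 CPM for Cxcr7 at days 0 and 3.

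Cd34, a sialomucin found on quiescent satellite cells and also on endothelial, blood-forming and interstitial cells, rose in PMs, and its C2C12 libraries overlapped between the days. The PM siControl libraries had 1.95 and 1.61 CPM at day 0, 8.02 and 3.39 CPM at day 3, and 18.4 and 10.1 CPM at day 6. The groups did not overlap, and the log2 fold change from day 0 was 1.62 ± 0.45 at day 3 and 2.93 ± 0.46 at day 6 (adjusted p = 0.0101 and 0.000266). The call at day 3 was lost without replicate 2 of PM siControl at day 0 (adjusted p = 0.064) or without replicate 1 at day 3, where the log2 fold change was 0.87 (adjusted p = 0.128). The summed fibroblast markers of the same libraries were 556 and 570 CPM when differentiation began, 1477 and 1601 CPM on day 3, then 2805 and 3878 CPM on day 6, with Tcf21 at 0, and their part in the rise of Cd34 was not tested. Of the 7 fibroblast markers tested in PMs, 2 were called higher at day 3 and 4 at day 6, beside 17.5% and 20.2% of all genes. Their median log2 fold change was -0.055 at day 3 and 2.00 at day 6. In C2C12 siControl libraries the fibroblast sum was 902 to 1420 CPM at day 0 and 2938 to 3458 CPM at day 3. In PMs the endothelial markers were at 7.35 to 15.5 CPM at day 0 and 8.51 to 14.9 CPM at day 6. The C2C12 siControl libraries had 31.4 and 11.2 CPM at day 0, 29.0 and 24.1 CPM at day 3, and 33.5 and 17.6 CPM at day 6. PMs were lower than C2C12 cells by -3.57 ± 0.60 on the log2 scale at day 0 and by -2.22 ± 0.55 at day 3 (adjusted p = 0.000146 and 0.0036), and the libraries overlapped at day 6. The call at day 3 was lost without replicate 2 of PM siControl (adjusted p = 0.0515).

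The change of Cd34 to day 6 was greater in PMs than in C2C12 cells by 2.73 ± 0.78 on the log2 scale (adjusted p = 0.0246). It was not called without replicate 1 of C2C12 siControl at day 0 (1.82, adjusted p = 0.161), replicate 2 at day 6 (0.0989), replicate 1 or 2 of PM siControl at day 0 (0.0635 and 0.0924) or replicate 1 at day 6 (0.108). Under siTead1/4 the PM libraries held 2.33 and 1.64 CPM at day 0, 2.60 and 1.44 CPM at day 3, and 8.31 and 6.48 CPM at day 6. At days 3 and 6 both were below both siControl libraries, by -1.49 ± 0.44 (adjusted p = 0.0715) and -0.95 ± 0.42 (adjusted p = 0.412) on the log2 scale. The difference at day 3 was called by DESeq2 (adjusted p = 0.0113) and without replicate 2 of PM siControl at day 3 (adjusted p = 0.0287), and was -0.74 without replicate 1 (adjusted p = 0.498). With the replicate number as a block this difference at day 3 was called (-1.46, adjusted p = 0.00293). The fibroblast markers summed to 1461 and 1976 CPM in the siTead1/4 libraries at day 3, against 1477 and 1601 CPM in siControl. Podxl, a sialomucin related to Cd34, fell in both cell types at day 3, by -2.42 in PMs and -2.59 in C2C12 cells on the log2 scale (adjusted p = 0.00013 and 0.00041).

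**Figure D2:**
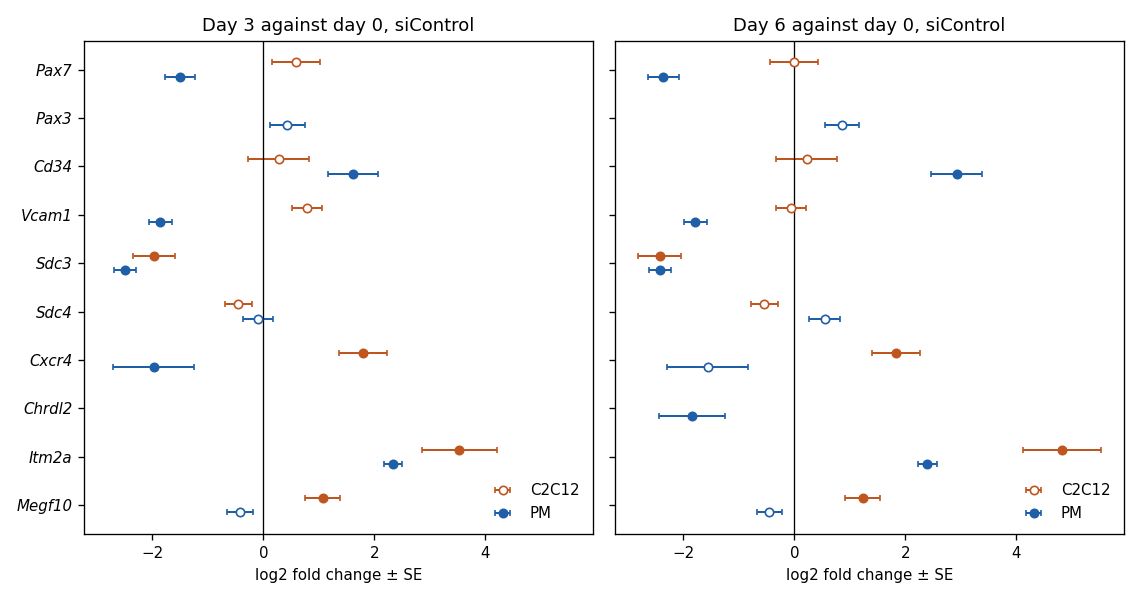
Log2 fold change ± SE of each member from day 0 to day 3 (left) and to day 6 (right) in siControl cells, C2C12 orange and PMs blue, filled where called. Pax3 and Chrdl2 were not tested in C2C12 cells, and Chrdl2 in PMs at day 3 is left out because both libraries were at or under 3 reads. Cxcr4 and Megf10 lie on opposite sides of 0 in the cell types, and Sdc3 and Itm2a on the same side.

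Of the syndecans, heparan sulphate proteoglycans that serve as co-receptors for growth factors, Sdc3 fell in both cell types. Under siControl the PM libraries held 440 and 461 CPM at day 0, 71.0 and 94.6 CPM at day 3, and 95.6 and 80.4 CPM at day 6. Under siControl the C2C12 libraries held 235 and 245 CPM at day 0, 51.0 and 74.8 CPM at day 3, and 36.4 and 55.3 CPM at day 6. In both cell types day 0 stood apart from the later days, with log2 fold changes of -2.50 ± 0.19 and -2.42 ± 0.19 in PMs (adjusted p = 2.28e-06 and 2.22e-06) and of -1.97 ± 0.38 and -2.43 ± 0.39 in C2C12 cells (adjusted p = 0.00264 and 0.000792). The difference between the changes was -0.51 at day 3 and 0.03 at day 6, with 95% intervals of -1.44 to 0.41 and -0.89 to 0.96. No call of Sdc3 in these 4 comparisons was lost when any single library was left out. PMs were above C2C12 cells at day 0 by 0.91 and at day 6 by 0.94 (adjusted p = 0.0277 and 0.0253), short of the fold threshold, and the latter was called without replicate 2 of C2C12 siControl at day 6 (1.26, adjusted p = 0.0229).

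Sdc4 was not called in any comparison with the edgeR settings used throughout, and other settings called it at day 0 between the cell types and for the change to day 6. Its siControl libraries held 94.0 and 127 CPM at day 0, 96.4 and 118 CPM at day 3, and 127 and 210 CPM at day 6 in PMs, and 235 and 191 CPM, 186 and 134 CPM, and 146 and 155 CPM in C2C12 cells. At day 0 both PM libraries lay below both C2C12 libraries (log2 difference -0.95 ± 0.27, adjusted p = 0.0105, short of the fold threshold), and this was called without replicate 2 of C2C12 siControl (-1.12, adjusted p = 0.015) or of PM siControl (-1.21, 0.0158) at day 0. The change to day 6 differed by 1.11 ± 0.38 (adjusted p = 0.0637), and was called by DESeq2 (adjusted p = 0.0409), with no filter on low counts (0.00841) and without replicate 1 of PM siControl at day 6 (1.44, adjusted p = 0.0251). The related Sdc2 rose in C2C12 cells from a mean of 175 to 754 CPM at day 3 (log2 fold change 2.06, adjusted p = 0.00077) and had 114 and 89.7 CPM in PMs, where it was not called. Sdc1 fell in PMs at day 3 by -1.18 (adjusted p = 0.0084).

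Megf10 (chr18:57292744-57457121) rose in C2C12 cells and was not called over time in PMs. In C2C12 cells the siControl libraries held 234 and 242 CPM at day 0, 460 and 569 CPM at day 3, and 478 and 673 CPM at day 6. The later libraries were all above day 0, by 1.07 ± 0.32 and 1.23 ± 0.32 on the log2 scale (adjusted p = 0.0212 and 0.0103). In PMs the siControl libraries held 297 and 368 CPM at day 0, 221 and 296 CPM at day 3, and 191 and 318 CPM at day 6, with log2 changes of -0.42 and -0.45 (95% intervals -0.93 to 0.09 and -0.96 to 0.06). The changes differed between the cell types by -1.48 ± 0.41 at day 3 and -1.66 ± 0.42 at day 6 (adjusted p = 0.0244 and 0.0112). At day 6 PMs were below C2C12 cells by -1.18 ± 0.30 (adjusted p = 0.00477), and at day 3 by -0.99 ± 0.29 (adjusted p = 0.011), just short of the fold threshold and called with no filter on low counts (-1.02), in a fit of only the libraries compared (-1.0), and without replicate 1 of C2C12 siControl (-1.17) or replicate 2 of PM siControl (-1.23) at day 3. The rise at day 3 was lost without either C2C12 siControl library of day 0 or replicate 2 of day 3 (adjusted p = 0.101, 0.09 and 0.121). The rise at day 6 was lost without either library of day 0 or replicate 2 of day 6 (0.0605, 0.0546 and 0.0687). The difference at day 6 between PMs and C2C12 cells was lost without replicate 2 of C2C12 siControl (0.0519) or replicate 1 of PM siControl at that day (0.071). The difference of the changes at day 3 was lost without either C2C12 library of day 0 (0.0795 and 0.0691), C2C12 replicate 2 of day 3 (0.0959), PM replicate 2 of day 0 (0.102) or PM replicate 1 of day 3 (0.123). That at day 6 was lost without C2C12 replicate 2 of day 6 (0.0605), PM replicate 2 of day 0 (0.0541) or PM replicate 1 of day 6 (0.0695).

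Itm2a rose in both cell types, from very different levels. The PM siControl libraries had 101 and 115 CPM at day 0, 463 and 673 CPM at day 3, and 572 and 625 CPM at day 6. The C2C12 siControl libraries had 13 and 7 reads at day 0, 84 and 176 reads at day 3, and 212 and 288 reads at day 6, which is 0.124 to 9.62 CPM. In both cell types the later libraries stood above day 0, by 2.33 ± 0.17 and 2.4 ± 0.17 on the log2 scale in PMs (adjusted p = 1.3e-06 and 8.93e-07) and by 3.53 ± 0.68 and 4.82 ± 0.70 in C2C12 cells (adjusted p = 0.00252 and 0.000425). PMs exceeded C2C12 cells by 8.90 ± 0.56 at day 0, 7.67 ± 0.49 at day 3 and 6.47 ± 0.46 at day 6 (adjusted p = 2.46e-09, 4.46e-09 and 1.93e-08). The rise to day 6 was smaller in PMs by -2.43 ± 0.67 (adjusted p = 0.0197). This difference was lost without replicate 2 of C2C12 siControl at day 0 (-1.72, adjusted p = 0.191) or day 6 (0.101), replicate 2 of PM siControl at day 0 (0.0566) or replicate 1 at day 6 (0.0588). Its relative Itm2b rose in C2C12 cells at day 3 by 1.97 (adjusted p = 0.00055), from a mean of 182 to 734 CPM, and was at 276 and 355 CPM in PMs.

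Chrdl2 was read only in PMs. All 12 C2C12 libraries held 0 reads. Under siControl the PM libraries held 20 and 42 reads at day 0, 1 and 3 reads at day 3, and 6 and 8 reads at day 6. It fell at least 10.0-fold from day 0 to day 3 against a floor of 3 reads per library (adjusted p = 0.00132; at least 5.3-fold without replicate 2 of day 0), and by -1.84 ± 0.59 on the log2 scale to day 6 (adjusted p = 0.022). The call at day 6 was not made by DESeq2 (adjusted p = 0.0743), nor without replicate 2 of PM siControl at day 0 (-0.96, 0.202) or replicate 1 or 2 at day 6 (0.105 and 0.0613). Against the same floor the PM level was at least 11.7-fold that of C2C12 cells on day 0 (adjusted p = 0.000385; at least 6.15-fold without replicate 2 of PM siControl) and at least 2.88-fold on day 6 (adjusted p = 0.00832), and the latter call was lost without replicate 1 of C2C12 siControl at day 6 (adjusted p = 0.06). The related Chrdl1 went the other way in C2C12 cells, from a mean of 0.176 CPM at day 0 to 20.3 CPM at day 3 (log2 fold change 6.93, adjusted p = 0.0022), and fell in PMs by -2.29 (adjusted p = 0.013).

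**Figure D3:**
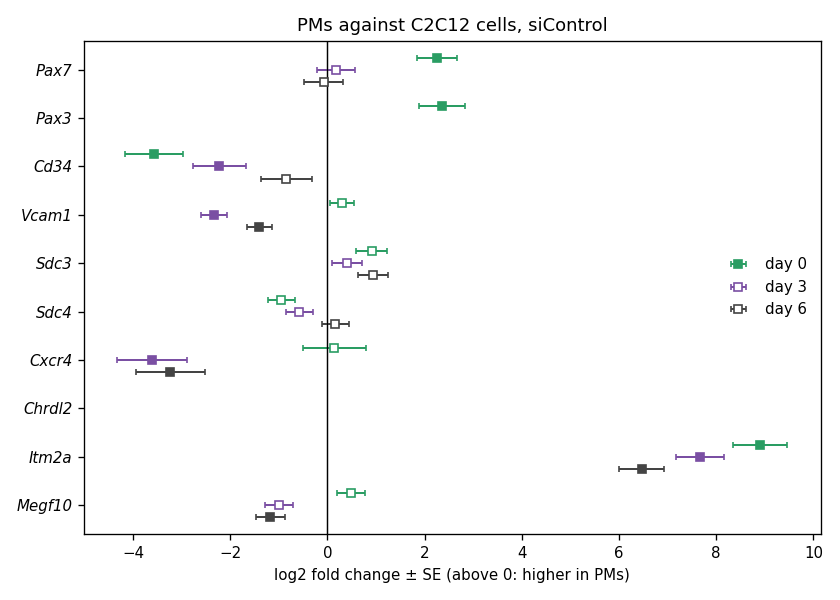
Log2 fold change ± SE of PMs against C2C12 cells in siControl at days 0, 3 and 6, filled where called, with values above 0 higher in PMs. Members with at most 3 reads in both libraries of a group are left out on that day (Pax3 at days 3 and 6, Chrdl2 on all days). Itm2a lies at 6.47 to 8.90, Pax7 is called at day 0 alone, and Cxcr4 and Vcam1 are below 0 at days 3 and 6.

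Under siTead1/4 none of the members was called by edgeR against siControl at any day in either cell type. The share of all tested genes that edgeR called was 0.438% at day 0, 1.27% at day 3 and 0.0457% at day 6 in C2C12 cells, and 2.6%, 3.3% and 0.743% in PMs. Replicates differed most in C2C12 siTead1/4 cells, with a chi-square per gene of 145, 287 and 113 at days 0, 3 and 6. It was 57.5, 51.7 and 67.9 in C2C12 siControl cells and 16.5 to 47.9 over the PM groups. Each fit shared its spread over all its groups, so this also enters the C2C12 tests over time. A low share of called genes in C2C12 cells therefore does not by itself show a weak effect of silencing. At an unadjusted p under 0.05 there were 1, 1 and 2 of 8 members in C2C12 cells and 1, 2 and 2 of 10 in PMs, and DESeq2 called 1 member, Cd34 in PMs at day 3. With no filter on low counts edgeR called Itm2a in C2C12 cells at day 3 (adjusted p = 0.0228), Pax7 in C2C12 cells at day 6 (0.00549) and Cd34 in PMs at day 3 (0.00117). With the replicate number as a block edgeR called Cd34 in PMs at day 3 (adjusted p = 0.00293). The 95% interval of the log2 fold change lay wholly between -1 and 1 for 2, 4 and 2 of the 8 members tested in C2C12 cells and for 5, 4 and 6 of the 10 in PMs. Megf10 was within these bounds in all 6 comparisons and Sdc4 in 5, with PM day 3 as the exception. Itm2a was within them on all 3 days in PMs. Where an interval reached past these bounds, a change of this size was not detectable rather than absent.

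Vcam1 was lower in both siTead1/4 libraries than in both siControl libraries at day 0 in each cell type. In PMs the silenced libraries held 69.8 and 69.8 CPM against 113 and 104 CPM, and in C2C12 cells 60.0 and 54.7 CPM against 94.5 and 81.5 CPM. The log2 fold changes were -0.64 ± 0.20 (adjusted p = 0.0839) and -0.62 ± 0.27 (adjusted p = 0.467), and neither passed. At day 6 in C2C12 cells Vcam1 stood the other way, at 167 and 102 CPM against 84.5 and 89.0 CPM (0.64 ± 0.27, adjusted p = 0.698). Itm2a was lower in C2C12 siTead1/4 libraries at day 0, with 4 and 1 reads, and at day 3, with 30 and 65 reads, than in siControl (log2 fold changes -1.68 and -1.30, adjusted p = 0.598 and 0.351). In PMs its 95% intervals were -0.36 to 0.34, -0.23 to 0.46 and -0.52 to 0.18 at days 0, 3 and 6. Sdc3 in C2C12 cells at day 0 was at 340 and 417 CPM under siTead1/4, above both siControl libraries (0.65 ± 0.37, adjusted p = 0.597). Cxcr4 in C2C12 cells at day 6 was at 206 and 132 CPM, also above both (0.87 ± 0.42, adjusted p = 0.768). Chrdl2 in PMs had 1 and 1 reads under siTead1/4 at day 6, which is at least 2.53-fold lower than siControl against the floor. This did not pass (adjusted p = 0.289). The test of the difference in silencing effect between PMs and C2C12 cells called no member in edgeR on any day, beside 0.00591%, 1.25% and 0.0354% of all genes at days 0, 3 and 6. At an unadjusted p under 0.05 it had 1, 2 and 1 members, and DESeq2 called 0. With no filter on low counts it called Cd34 (-1.91, adjusted p = 0.00478) and Itm2a (1.41, adjusted p = 0.0142) at day 3.

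**Figure D4:**
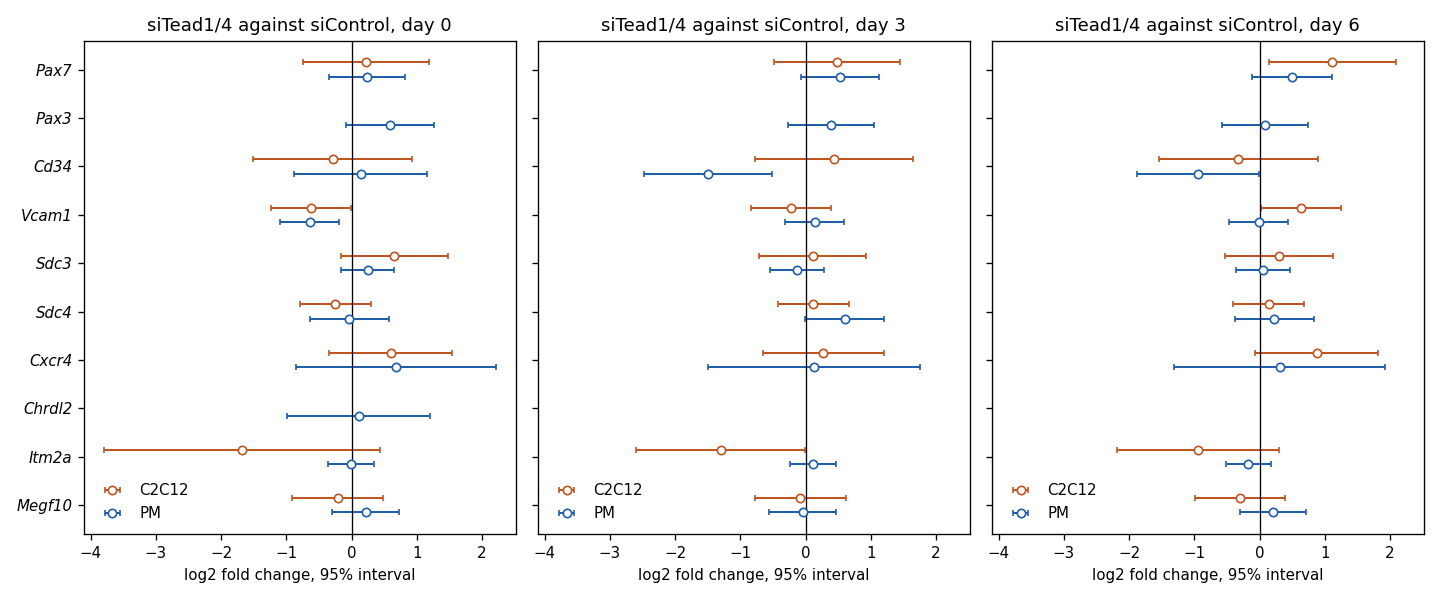
Log2 fold change of each member in siTead1/4 against siControl cells at days 0, 3 and 6 with its 95% interval, C2C12 orange and PMs blue, all open because none was called. Pax3 and Chrdl2 were not tested in C2C12 cells, and Chrdl2 in PMs is shown at day 0 alone because of reads at or under 3 later. Most intervals span 0. Those of Vcam1 at day 0, of Cd34 in PMs at days 3 and 6 and of Itm2a in C2C12 cells at day 3 lie below it, and those of Pax7 and Vcam1 in C2C12 cells at day 6 above it.

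Further genes linked to satellite cells also moved in both directions. Of 20 such genes, 3 rose and 5 fell among 19 tested in PMs at day 3, and 7 rose and 1 fell among 18 tested in C2C12 cells, where 32.3% and 28.7% of all genes were called. The list had a median of -0.08 in PMs and 0.44 in C2C12 cells on the log2 scale, against 0.01 and -0.01 over all tested genes. In PMs the Notch target Hey1 fell by -3.41 and Met, the receptor of hepatocyte growth factor, by -2.12, while Spry1, an inhibitor of receptor tyrosine kinase signalling, rose by 1.93 (adjusted p = 1.7e-05, 3.6e-06 and 1.1e-06). In C2C12 cells Spry1 rose by 6.95, the Notch target Heyl by 5.65, the FGF receptor Fgfr4 by 4.16 and Ncam1 by 2.59 (adjusted p = 6.9e-05, 8.8e-05, 0.00033 and 1.9e-05). These genes started low in C2C12 cells, where Spry1 was at 0.401 CPM, Heyl at 1.05 CPM and Fgfr4 at 1.39 CPM at day 0, against 24.1, 65.3 and 172 CPM in PMs. In PMs against C2C12 cells at day 0, 9 of the 19 tested were higher and 1, Msx1, was lower (log2 fold change -3.97), beside 16.3% and 10.5% of all genes. The change from day 0 to day 3 was lower in PMs for 9 of 19 and higher for 0. Among the members themselves 4 were lower and 0 higher in this test at day 3, where 11.2% of all genes were called, 7.44% lower and 3.79% higher. At day 6, 5 were lower and 2 higher, where 12.7% of all genes were called, 7.43% lower and 5.27% higher. Under siTead1/4 edgeR called 0 of the further genes in all 6 comparisons.

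Of 20 partners and relatives of the members, 3 rose and 8 fell in PMs at day 3, and 9 rose and 2 fell among 19 tested in C2C12 cells, beside the same shares of all genes (32.3% and 28.7% called). Chrd, which codes for chordin, rose in both, by 3.66 in PMs and 4.41 in C2C12 cells (adjusted p = 1.4e-05 and 4.4e-06). Dll1, a Notch ligand, rose by 4.84 in C2C12 cells (adjusted p = 0.00013) from 0.832 CPM, and was at 82.9 CPM in PMs at day 0. Bmp2 rose in PMs by 3.09 (adjusted p = 1.8e-05), from 0.483 to 4.30 CPM. Under siTead1/4 Itga4 rose in C2C12 cells at days 3 and 6 (1.86 and 2.49, adjusted p = 0.033 and 0.049). It was the 1 gene called of 19 on each day, beside 1.27% and 0.0457% of all genes. In PMs Hgf rose at day 0 (2.20, adjusted p = 0.0083) and Bmp2 at days 3 and 6 (1.71 and 1.54, adjusted p = 0.0044 and 0.023). Each was the 1 gene called of 20 on its day, beside 2.6%, 3.3% and 0.743% of all genes at days 0, 3 and 6.

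Genes of commitment and fusion already differed between the cell types at day 0. Of 12 commitment and fusion genes 11 were higher in PMs than in C2C12 cells at day 0 and 0 were lower, beside 16.3% and 10.5% of all genes. Myog, which drives terminal differentiation, was at a mean of 999 CPM in PMs and 6.30 CPM in C2C12 cells, and the embryonic myosin Myh3 was higher in PMs by 8.5 on the log2 scale (adjusted p = 1e-09). From day 0 to day 3, 10 of the 12 rose and 0 fell in C2C12 cells, with a median log2 fold change of 7.61, and 10 rose and 1 fell in PMs, with a median of 2.11, where 16% and 17.5% of all genes rose. All 12 proliferation genes fell in both cell types at day 3, with medians of -3.47 in C2C12 cells and -3.52 in PMs. Of all tested genes 12.7% in C2C12 cells and 14.9% in PMs fell at that day. The part of these differences in the values of Pax7, Cxcr4 and the other members was not tested.

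Over the 24 libraries, the genes whose log2 CPM followed a member most closely are given as a description, since the libraries share cell type and day. For Pax7 they were Sema3e and Cpa5 (Pearson r = 0.91 and 0.90). For Cd34 they were Htra1 and Serpinb9b (0.94 and 0.94), and for Vcam1 Sh3bgrl and Lrp5 (0.93 and 0.93). For Chrdl2 they were Gpr123 and Gm11570 (0.94 and 0.93), and for Megf10 Spire1 and Tdrd9 (0.89 and 0.88). Chrdl2 had 0 reads in every C2C12 library and few in PMs, so its r rests partly on values at the floor. Between members the sign could turn with the cell type. Over the 12 libraries of each, Sdc3 and Cxcr4 had r = 0.82 in PMs and -0.76 in C2C12 cells, Sdc3 and Megf10 0.70 and -0.87, and Pax7 and Itm2a -0.83 and 0.30. Pax7 and Vcam1 went together in both, with r = 0.85 in PMs and 0.73 in C2C12 cells.

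The replicates themselves differed in order for some members. Cd34 was higher in replicate 1 in all 6 PM groups and in all 6 C2C12 groups, with ratios of replicate 2 to replicate 1 from 0.422 to 0.824 and from 0.358 to 0.831. Cxcr4 was higher in replicate 2 in all 6 PM groups, by 1.58-fold to 3.90-fold, and Megf10 in all 6 by 1.08-fold to 1.66-fold. Of all 16926 genes tested, 5.94% were higher in replicate 2 and 6.58% in replicate 1 in all 6 PM groups, and 2.82% and 3.34% in all 6 C2C12 groups. What the replicate numbers stand for is not given by the labels.

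**Figure D5:**
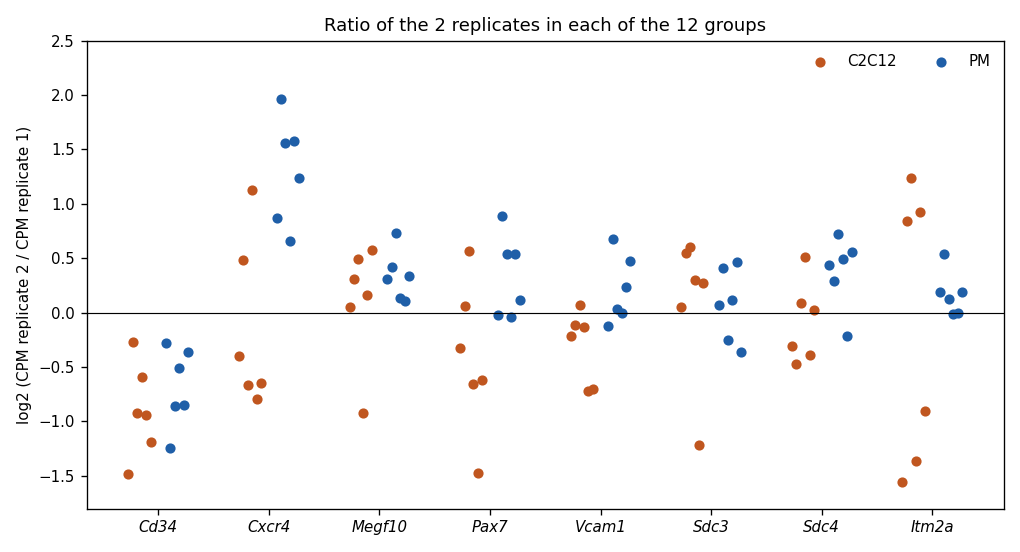
Log2 ratio of the CPM of replicate 2 to that of replicate 1 for 8 members, 1 point for each of the 6 groups of a cell type, C2C12 orange and PMs blue. Pax3 and Chrdl2 are left out because some libraries were at 0. All points of Cd34 lie below 0, and those of Cxcr4 and Megf10 in PMs lie above it.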

How the data were processed

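Poly-A RNA was sequenced from unstranded libraries. Per the labels' processing notes the authors used CASAVA 1.8.2, TopHat2 2.0.10, Bowtie2 2.1.0, HTSeq 0.6.1 and DESeq2 1.8.1 with mm9. The deposited table gives raw counts per gene, which were tested here, and a normalized signal, which the authors obtained by dividing counts by size factors, alone and per gene length, and which was not used. Its 36 columns of unlisted libraries were not used.

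Counts were fitted with edgeR 4.0.16 (R 4.3.3) as TMM-scaled quasi-likelihood models after filterByExpr, on the 12 libraries of a cell type with 6 group means, or on all 24 with 12 group means for PMs against C2C12 cells and for differences between changes. Tested genes numbered 15303 in C2C12 cells, 16144 in PMs and 16926 over all. P-values were adjusted over all tested genes with the Benjamini-Hochberg method, and genes were called at a threshold of 0.05 when the log2 fold change was also beyond 1 in either direction. SE is the log2 fold change divided by the root of the F statistic, and intervals use the t distribution of the fit. CPM uses TMM over the 24 libraries. CPM per kb divides by the gene length in the table. At most 3 reads in both libraries of a group were treated as a floor.

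Named genes were all 10 members, Tead1 and Tead4, at most 4 called genes per list and comparison by size of change, and preset relatives of a member. The members and lists were chosen with earlier results of these data known. Scripts were tested on simulated data. Alternatives were DESeq2 1.42.0, other scaling factors, no filter, no fold threshold, only the libraries compared, all 24 libraries in 1 fit, a replicate block, and each library left out. The labels call the replicates biological and do not say what separated them, so p-values measure the spread between these cultures. Bounds divide the observed mean of the higher group by the floor. They are not confidence limits, and cover neither counting error nor the spread between these cultures.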

Additional observations from a re-analysis of the deposited data

Results flagged for a closer look

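The results listed here are those for which the change from day 0 in siControl cells differed between PMs and C2C12 cells by the edgeR test of the difference itself, given as log2 values, PMs minus C2C12 cells. From day 0 to day 3 the differences were -2.08 for Pax7, -2.63 for Vcam1, -3.75 for Cxcr4 and -1.48 for Megf10. From day 0 to day 6 they were -2.34 for Pax7, 6.16 for Pax3, 2.73 for Cd34 and -1.70 for Vcam1. For Cxcr4, Itm2a and Megf10 they were -3.37, -2.43 and -1.66. Of all tested genes 11.2% were called for the change to day 3 and 12.7% for that to day 6. The calls of Pax7 at day 6 and of Vcam1 at both days were kept whichever single library was left out. Each of the others was lost without some single library. The value of Pax3 is no measure of size, because C2C12 siControl libraries held 0 reads at day 6, and it became 4.24 (adjusted p = 0.268) without replicate 2 of C2C12 siControl at day 0. Adjusted p was 0.00223 for Pax3 with all libraries. Groups of 2 libraries are too small for a test of single outlying samples.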

How the results depend on the processing

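Over 2180 values of single members under all alternatives, called or not, 2054 kept their side of the threshold. Results with no call are counted in both numbers, so this share does not show how often a call was kept. These 2054 kept their direction or, where not called, turned sign by at most 1 SE. Of the others, 51 were no longer called and 38 became called. A further 37 with no call on either side turned sign by more than 1 SE, and 0 called values turned sign. Counts of members called when each library was left out ran from 1 to 4 for the difference of the change to day 3 between the cell types (4 with all libraries) and from 3 to 7 for that to day 6 (7). Where this left 1 library in a group, it was assumed to vary like the other groups. The counts ran from 2 to 4 for C2C12 siControl at day 3 against day 0 (4) and from 2 to 3 at day 6 (4), and from 0 to 1 both for PM siControl at day 6 against day 3 (0) and for siTead1/4 in PMs at day 3 (0). With no filter on low counts, 2 members were called for the difference of the silencing effect at day 3, 1 (Cd34) for PMs at day 6 against day 3, and under siTead1/4 1 in C2C12 cells at day 3 (Itm2a), 1 at day 6 (Pax7) and 1 in PMs at day 3 (Cd34). The same setting added Cxcr4 in PMs at day 6 against day 0, Megf10 in PMs against C2C12 cells at day 3 and Sdc4 for the difference of the change to day 6, and a fit of only the libraries compared added the former 2. DESeq2 called 1 (Cd34) for PMs at day 6 against day 3 and 1 (Cd34) for siTead1/4 in PMs at day 3, added Sdc4 for the difference of the change to day 6, and lost Chrdl2 in PMs at day 6 against day 0. With no fold threshold, 6 more passed, each named in the text as short of it. The cause of these changes was not tested. With the replicate number as a block, 1 member each (Cd34) was called for the silencing difference at day 3, for PMs at day 6 against day 3 and for siTead1/4 in PMs at day 3. The block also added Cxcr4 in PMs at day 6 against day 0 (-1.69, adjusted p = 0.000129), Megf10 in PMs against C2C12 cells at day 3 (-1.11, 0.00523), Sdc4 in the same comparison at day 0 (-1.19, 0.00117) and Sdc4 for the difference of the change to day 6 (1.09, 0.0287), 7 calls in all, and lost 0. Deviations of same-numbered libraries from their group means had a median correlation of 0.0797 in C2C12 cells (over 0.1 in 6 of 15 pairs of groups). In PMs the median was 0.201 (14 of 15). Between siControl and siTead1/4 of the same day the correlation was 0.377, 0.409 and 0.503 in PMs at days 0, 3 and 6. In C2C12 cells these values were -0.130, 0.0896 and 0.468. The numbers were not treated as pairs except in the replicate block. With 2 libraries a group, changes of low genes such as Pax3, Chrdl2 and C2C12 Itm2a are resolved only when large.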
